A study of Homo sapiens with 38 samples.

Results

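The genes described here are the 37 genes of the human mitochondrial genome, taken as every row of the deposited expression tables whose Ensembl identifier maps to a symbol starting with MT-. They are 13 protein genes, 2 ribosomal RNA genes and 22 transfer RNA genes, out of 60252 rows in each of 2 tables, one for RWPE-1 and one for C4-2B, and they were read in 36 RNA-seq libraries. RWPE-1 cells are immortalized normal prostate epithelium that does not form tumours, and C4-2B cells are a castration-resistant derivative of the LNCaP prostate cancer line. The study asked how a 7p15.2 region tied to prostate cancer risk acts on gene expression, HOXA13 in particular. In RWPE-1, 7 libraries carried a deletion of that region and 5 control libraries were wild type there, and the labels give genome editing as the treatment of both. Another 6 RWPE-1 libraries came from flasks transfected with a HOXA13 expression vector (3) or with the matching eGFP plasmid (3), harvested after 48 hours and sorted for the brightest 10% of eGFP-positive cells. In C4-2B, 3 deletion lines (named m, le5 and ld9) and 3 wild-type control lines gave 3 libraries each. The deletion lines are single-cell clones from 2 edited colonies of this tetraploid line, and which clone came from which colony is not stated. RWPE-1 was grown in serum-free keratinocyte medium and C4-2B in RPMI medium with serum. The labels leave unsaid whether the deletion and control libraries of RWPE-1 are separate clones or cultures, so p-values measure the spread between libraries, which may be technical.

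The mitochondrial genome is a small circle whose strands are each transcribed into long RNAs that carry many genes. Enzymes cut these precursors mostly at the transfer RNAs, so neighbouring genes start from the same transcript and differ in level through later processing and stability. The proteins it encodes are subunits of the respiratory chain: MT-ND1 to MT-ND6 and MT-ND4L of complex I, MT-CYB of complex III, MT-CO1 to MT-CO3 of complex IV, and MT-ATP6 and MT-ATP8 of ATP synthase. MT-RNR1 and MT-RNR2 are the RNAs of the small and the large subunit of the mitochondrial ribosome. All other subunits and all factors that copy, transcribe and process the genome are nuclear. MT-ND6 is the protein gene read from the opposite strand to the others, and its messenger RNA lacks the poly(A) tail that the other messengers carry. The libraries were made with a stranded mRNA kit, a kind that selects polyadenylated RNA, so ribosomal RNA, transfer RNA and MT-ND6 are measured only as far as they were carried through that selection. Whether reads were counted by strand is not stated, so reads from a gene and from RNA of the opposite strand cannot be told apart.

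Marker levels matched the line names. KRT5, a basal keratin, averaged 9094 TPM in RWPE-1 control libraries and 0 in C4-2B control libraries, where KLK3, a luminal androgen target, averaged 2452 TPM. TPM is the share of transcripts corrected for length, scaled to the same total in every library. HOXA13 averaged 1.16 TPM in RWPE-1 control, 8.03 in RWPE-1 deletion, 2.67 in eGFP and 748 in HOXA13-transfected libraries. PTPRC, a general leukocyte marker, was at most 0.33 TPM in any library. Library 1 of C4-2B control line 3 stood apart from all others, and its values are given apart where a C4-2B result rests on them.

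Mitochondrial genes took between 10.8% and 16.6% of the TPM of every library except that one, where they took 28.4%. In the RWPE-1 control libraries the share was 13.8%, 16.2%, 15.7%, 14.3% and 13.7%. The 7 deletion libraries had a lowest share of 15.01%, a median of 15.7% and a highest of 16.5%. Deletion libraries thus lay in and slightly above the upper part of the control range, with means of 15.7% ± 0.458 (SD, n = 7) and 14.7% ± 1.15 (SD, n = 5). The eGFP libraries were at 14.8%, 13.2% and 13.6%, and the HOXA13 libraries at 13.6%, 13.4% and 12.5%, again with overlap. In bulk RNA a lower share from fewer cells and from less RNA per cell cannot be told apart.

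Among the C4-2B lines, the share was 10.9%, 10.8% and 11.8% in control line 1 and 12.7%, 11.6% and 11.9% in control line 2. Control line 3 had 28.4%, 16.6% and 15.3%. Deletion line m had 13.6%, 12.9% and 12.5%, le5 had 15.3%, 15.8% and 15.7%, and ld9 had 14.4%, 14.5% and 14.5%. The lines differed more from each other than the libraries of most lines did, and the deletion lines lay inside the range of the control lines. Over lines the mean was 14.5% ± 4.91 (SD, n = 3) for control and 14.4% ± 1.299 (SD, n = 3) for deletion. Without library 1 of control line 3 the control mean was 13.1% ± 2.55 and the difference turned from -0.0979 to 1.28 percentage points. Levels in RWPE-1 and C4-2B come from tables made separately and are only set side by side.

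**Figure D1:**
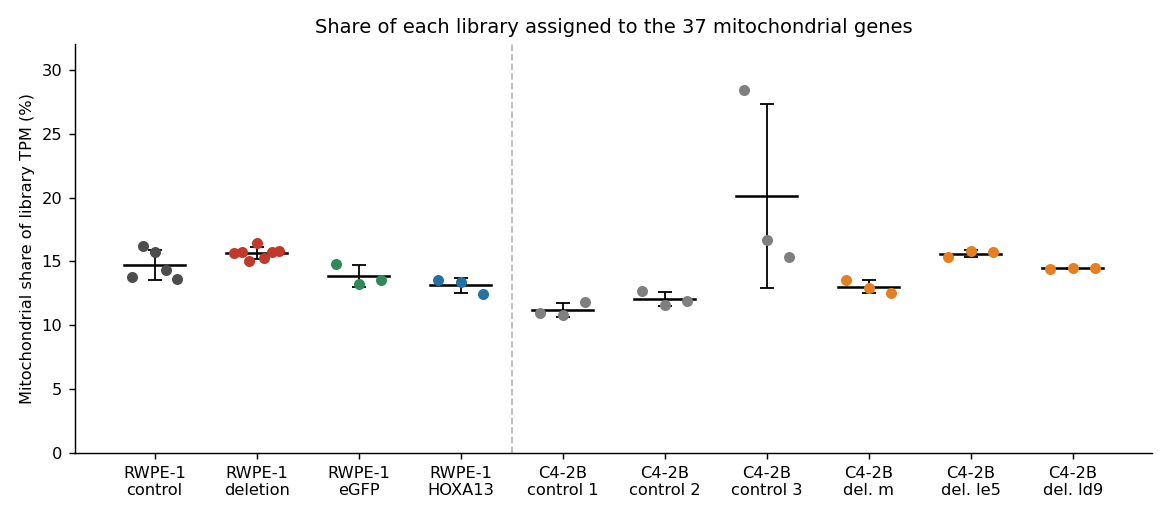
Mitochondrial share of library TPM in percent (vertical axis) for each of the 36 libraries (points), by RWPE-1 group and C4-2B line, with the mean (bar) and SD (whiskers). RWPE-1 groups average between 13.1% and 15.7%, and library 1 of C4-2B control line 3 stands alone at 28.4%.

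Of the 37 genes, 14 had values above 0. These were 12 protein genes and both ribosomal RNA genes, and between 7 and 9 of them were among the 10 most abundant genes of every library. All 22 transfer RNA genes and MT-ATP8 were listed at 0 TPM in all 36 libraries. MT-ATP8 did have reads: the authors' deposited tables give it a mean normalized count of 29030 in the RWPE-1 deletion comparison, 15339 in the overexpression comparison and 11220 in the C4-2B comparison. Among 6417 genes with a mean normalized count of at least 1000 in the authors' deposited table of RWPE-1 deletion, MT-ATP8 was the 1 gene at 0 TPM in all those libraries. A TPM of 0 is therefore not read here as absence of the transcript. MT-ATP8 is the shortest of the protein genes and overlaps MT-ATP6 in the genome.

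MT-CO2 of complex IV headed the order per transcript length in RWPE-1 control libraries. In these libraries MT-CO2 averaged 22276 ± 2267 TPM (SD, n = 5), MT-CO3 19526 ± 1608, MT-ND4L 19017 ± 1427, MT-ATP6 17035 ± 1646 and MT-CO1 15597 ± 1172. Neighbours in that order overlapped between libraries. After a gap without overlap came MT-RNR2 at 12168 ± 1325 TPM, overlapping MT-ND4 at 9612 ± 1063, then MT-ND2 at 8133 ± 756 and MT-ND1 at 7709 ± 954. MT-ND3 at 5788 ± 327 and MT-CYB at 5176 ± 725 TPM formed the next overlapping pair. MT-ND5 averaged 2641 ± 495 TPM and overlapped MT-RNR1 at 1844 ± 547, and MT-ND6 was lowest at 882 ± 243 with no overlap. The measured genes thus spanned a wide range of levels per length. For MT-RNR1, MT-RNR2 and MT-ND6 the level also rests on how far poly(A) selection carried them.

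The rank of the short messengers differed between TPM, which is corrected for length, and the authors' counts. MT-ND4L and MT-ND4 are adjacent and overlap in the genome, and MT-ND4L had the higher TPM in every library. The authors' deposited table of RWPE-1 deletion gives MT-ND4 a mean normalized count of 338059 and MT-ND4L 34982. One TPM of MT-ND4L stood for 0.0512 times as many counts of the authors' deposited table as one TPM of MT-ND4 in that comparison, 0.0503 in overexpression and 0.0424 in C4-2B. For MT-ND3, another short messenger, the figure was 0.0958, 0.0991 and 0.0935. An equal TPM of MT-ND4L or MT-ND3 thus went with far fewer of the authors' counts than one of MT-ND4. Counts and TPM were deposited separately and may not rest on the same reads. How reads in the overlap of MT-ND4L and MT-ND4 were assigned is not stated. The parts of length correction and read assignment were not tested.

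**Figure D2:**
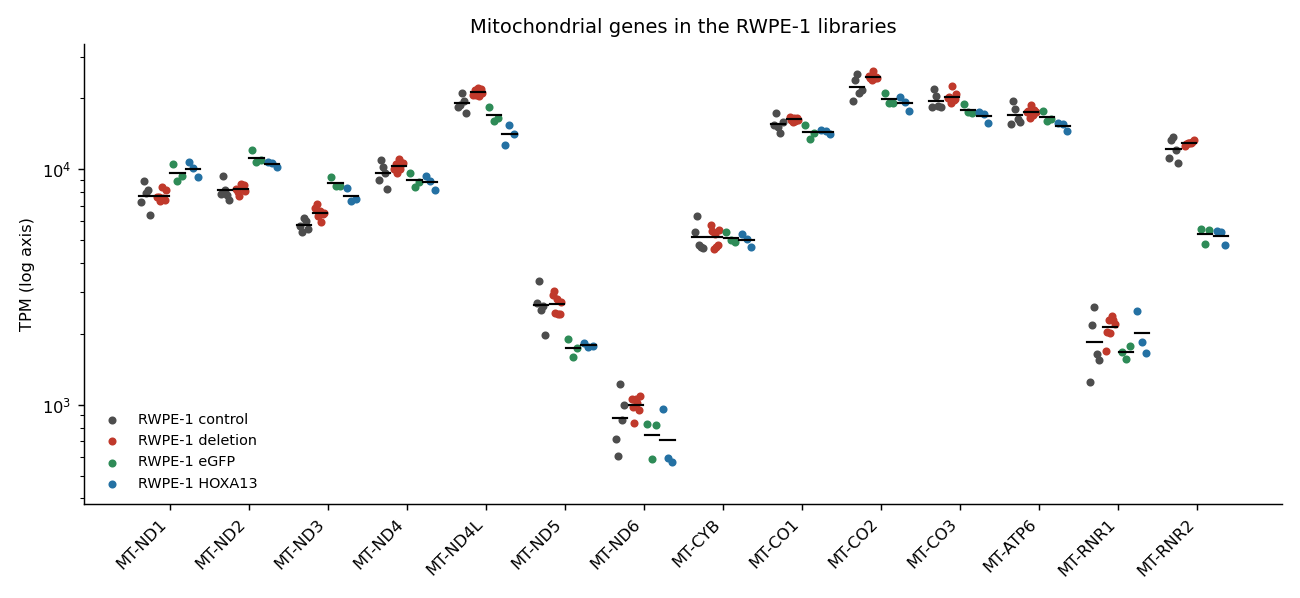
TPM on a log axis of the 14 mitochondrial genes with values above 0 in the 18 RWPE-1 libraries, coloured by group (points are libraries, bars are means). Control and deletion libraries overlap for every gene, and MT-RNR2 lies lower in the eGFP and HOXA13 libraries (4771 to 5593 TPM) than in the others (10650 to 13667 TPM).

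In RWPE-1 cells, deletion of the risk region left all 14 measured mitochondrial genes short of the test's threshold. Mean TPM was higher in deletion libraries for all of them but MT-CYB, and under median-ratio scaling the log2 difference turned below 0 for 5, MT-ND1, MT-ND2, MT-ND5, MT-CYB and MT-ATP6. The test was limma on log2(TPM + 1), two-sided, with Benjamini-Hochberg adjustment over all genes tested, and a gene was called at an adjusted p under 0.05. SE stands for the standard error of a log2 fold change. It called 0 of the 14 members, against 10.3% of the 14186 genes tested, and 3 members had an unadjusted p under 0.05. No member had groups without overlap, against 6.7% of all genes tested. In the authors' deposited table, which rests on DESeq2, 0 of 27 mitochondrial genes with an adjusted p were below 0.05, against 17.4% of all genes there.

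MT-ND3 and MT-ND4L, both of complex I, came closest to the threshold. MT-ND3 was at 5759, 5394, 6177, 6050 and 5558 TPM in control libraries, and at 5957, 6499 and 7117 TPM (lowest, median, highest) in deletion libraries. All but 1 deletion library exceeded the highest control library. For MT-ND3 the log2 fold change was 0.18 (SE 0.0530, limma adjusted p = 0.0511). It came under the threshold without control library 3, without deletion library 5, with TPM rescaled to nuclear genes, with a pseudocount of 0.1 or 5, with robust eBayes and when all 18 RWPE-1 libraries were fitted together, and over all 21 alternative settings its adjusted p ran from 0.0314 to 0.315.

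MT-ND4L was at 18371, 18801, 21158, 19443 and 17311 TPM in control libraries and at 20517, 20989 and 22038 TPM (lowest, median, highest) in deletion libraries. Control library 3 was higher than the deletion median, and the other 4 control libraries were lower than every deletion library. This is a log2 fold change of 0.16 (SE 0.0520, limma adjusted p = 0.0685). MT-CO2, the subunit of complex IV that takes electrons from cytochrome c, was at 19545, 23861, 25241, 21108 and 21625 TPM in control and 23941, 24436 and 26117 TPM in deletion libraries. Its log2 fold change was 0.15 (SE 0.0607, limma adjusted p = 0.124). Without control library 3, MT-ND3, MT-ND4L and MT-CO2 were all called higher in deletion libraries.

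MT-RNR1 and MT-ND6 varied most among control libraries. MT-RNR1 was at 1247, 2187, 2610, 1636 and 1541 TPM in control libraries and at 1695, 2197 and 2378 TPM (lowest, median, highest) in deletion libraries, a log2 fold change of 0.25 (SE 0.156, limma adjusted p = 0.328). The deletion libraries lay inside the spread of the control libraries. MT-ND6 was at 714, 606.5, 1226, 864 and 999 TPM in control libraries and at 839, 1013 and 1090 TPM in deletion libraries, which were also inside it. The other 9 genes had log2 fold changes between 0.00013 (MT-CYB) and 0.11 (MT-ND4). The median log2 fold change over the 14 was 0.079, beside 0.054 over all genes tested.

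**Figure D3:**
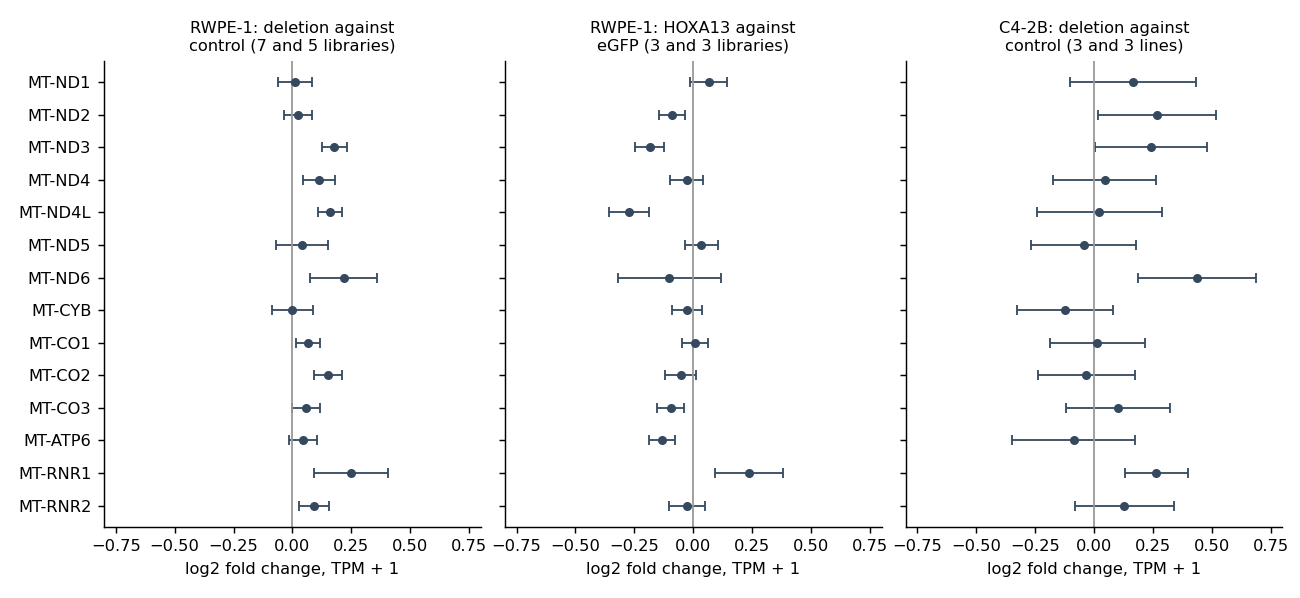
Log2 fold change of TPM + 1 (horizontal axis, points) with its limma standard error (whiskers) for the 14 measured mitochondrial genes in the 3 comparisons of the study. No gene passed the threshold in any panel. The C4-2B panel, with lines as replicates, has the widest whiskers for every gene but MT-RNR1, whose whisker is narrowest there.

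The nuclear genes that supply and service the mitochondrial genome were called in both directions in the same comparison. The lists were textbook sets of factors and subunits, chosen with earlier results of these data known. Of all genes tested, 6.46% were called higher and 3.86% lower, and counts of a few genes in a list are read against those shares. Of 17 genes for transcription and replication of mitochondrial DNA, 0 were called at the adjusted threshold, and the smallest p belonged to TFB2M, a transcription factor of the mitochondrial polymerase, at 0.24 on the log2 scale (limma adjusted p = 0.0698). Of 32 genes for mitochondrial RNA processing and decay, 5 rose and 1 fell. TRMT10C, a subunit of the enzyme that cuts transfer RNA 5′ ends, rose by 0.24 (limma adjusted p = 0.0117), and GRSF1, of the mitochondrial RNA granules, rose by 0.19 (limma adjusted p = 0.0190). PTCD2, a factor for MT-CYB transcripts, fell by 0.31 (limma adjusted p = 0.0430). Of 8 measured regulators of biogenesis, the coactivator PPARGC1B fell by 0.39 (limma adjusted p = 0.0319) and 0 rose.

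Nuclear subunits that assemble with the mitochondrial ones were called lower where they were called. For complex I, 2 of 37 fell, a share near that of all genes, NDUFS4 by 0.87 and NDUFA2 by 0.56 on the log2 scale (limma adjusted p = 1.04e-05 and 0.00287). For complex III, 1 of 9 fell, UQCRQ by 0.62 (limma adjusted p = 0.00225). For complex IV, 3 of 11 fell: COX7C by 0.54, COX6A1 by 0.21 and COX4I1 by 0.15. For ATP synthase, 1 of 17 fell, ATP5PD of the peripheral stalk, by 0.38 (limma adjusted p = 0.0371). Of 78 proteins of the mitochondrial ribosome, 4 fell, with MRPL47 at -0.75 and MRPL22 at -0.59, and 3 rose, with MRPL44 at 0.26. Median log2 fold changes were -0.045, -0.027, -0.15 and -0.044 for the 4 sets of subunits and 0.023 for the ribosomal proteins, beside 0.054 over all genes.

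Most of these falls came from a single chromosome. Of the 13 list genes that fell, 8 lie on chromosome 5 by the RefSeq gene table: PTCD2, PPARGC1B, NDUFS4, NDUFA2, UQCRQ, COX7C, MRPL22 and MRPS27. None of the 8 that rose does. On that chromosome, 312 of 593 genes tested were called lower in the deletion libraries. The part of that chromosome-wide lowering in the list counts was not tested.

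Forced HOXA13 expression gave no called change in a mitochondrial gene by limma, with 0 of 14 members against 0.0135% (2 genes) of the 14814 tested, although 3 members had an unadjusted p under 0.05. Those 3, MT-ND4L, MT-ND3 and MT-ATP6, were lower in all HOXA13 libraries than in all eGFP libraries. Groups without overlap were found for 21.1% of all genes tested, so 3 of 14 is near that share. The HOXA13 libraries expressed the factor at 684 to 842 TPM. The 6 luminal prostate markers summed to 10.1 to 11.3 TPM in eGFP and 13.7 to 75.1 TPM in HOXA13 libraries, and the 4 basal markers to 6086 to 6467 and 5677 to 6022 TPM. The 3 immune markers summed to 134.6 to 158.5 TPM in eGFP and 169 to 202.7 TPM in HOXA13 libraries, with PTPRC at 0 in both. The part of these markers in the values below was not tested.

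MT-ND4L was at 18340, 15991 and 16482 TPM in eGFP libraries and at 12629, 15457 and 14083 TPM in HOXA13 libraries. HOXA13 library 1 was the lowest, and the nearest values of the groups were 15991 and 15457 TPM. MT-ND4L had a log2 fold change of -0.27 (SE 0.0846, limma adjusted p = 0.283). MT-ND3 was at 9272, 8475 and 8519 TPM in eGFP and 8280, 7350 and 7487 TPM in HOXA13 libraries, a log2 fold change of -0.19 (limma adjusted p = 0.306). MT-ATP6, the proton channel subunit of ATP synthase, was at 17718, 16088 and 16379 TPM in eGFP and 15661, 15625 and 14461 TPM in HOXA13 libraries, a log2 fold change of -0.13 (limma adjusted p = 0.359). The lowest eGFP library stood within a few percent of the highest HOXA13 library for all of them.

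The authors' deposited table called 3 of 17 mitochondrial genes with an adjusted p in this comparison, against 12.1% of all its genes. In the authors' deposited table MT-ATP8 was at -0.32 on the log2 scale (standard error 0.0759, DESeq2 adjusted p = 0.00105) and MT-ND4L at -0.31 (standard error 0.0778, adjusted p = 0.00242). The third, named after its value was seen, was the transfer RNA gene MT-TT at -0.41 (standard error 0.147, adjusted p = 0.0475) on a mean normalized count of 122 in the authors' deposited table. MT-ND3 was at -0.19 with an adjusted p of 0.0556 in the authors' deposited table. MT-ATP8 and MT-ND4L each overlap a longer neighbour, MT-ATP6 and MT-ND4, and how reads in the overlaps were assigned is not stated. MT-ND4 itself was at 9662, 8415 and 8804 TPM in eGFP and 9329, 8908 and 8127 TPM in HOXA13 libraries, with full overlap.

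The other 11 genes had log2 fold changes between -0.10 (MT-ND6) and 0.24 (MT-RNR1). MT-RNR1 was at 1680, 1569 and 1781 TPM in eGFP and 2508, 1855 and 1655 TPM in HOXA13 libraries, with HOXA13 library 1 well above the rest. In the nuclear lists, limma called 0 genes. The smallest adjusted p belonged to NDUFC2 of complex I (-0.58), ATP5MK of ATP synthase (-0.50), COX7C of complex IV (-0.36) and MRPS10 of the ribosome (-0.49), each with a limma adjusted p of 0.206. TFAM, which packages mitochondrial DNA and starts its transcription, was at -0.40 (limma adjusted p = 0.316), and TRMT10C at -0.40 (limma adjusted p = 0.254).

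Deletion of the same region in C4-2B cells gave no called mitochondrial gene when lines were the replicates. By limma 0 of 14 members were called, none had an unadjusted p under 0.05, and 0% (0 of 14820) of all genes were called, with 529 at an unadjusted p under 0.05. No member had deletion lines apart from control lines, against 9.53% of all genes. The lowest unadjusted p among members belonged to MT-RNR1 and MT-ND6, the RNAs whose levels varied most between libraries of RWPE-1 control. Between all C4-2B control libraries MT-RNR1 had the lowest SD of the 14, at 17.4% of its mean, and that of MT-ND6 was 31.0%. That order includes library 1 of control line 3, which lay above all other control libraries for 12 of the 14 genes. The order without that library was not computed, so MT-RNR1 is not read as the steadiest gene.

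MT-RNR1 was at 4203, 3368 and 5099 TPM in control line 1, at 4036, 4145 and 4954 in line 2 and at 3054, 4098 and 5179 in line 3. It was at 5648, 5476 and 5043 TPM in line m, at 5371, 5963 and 4973 in le5 and at 4608, 4431 and 3999 in ld9. Lines m and le5 averaged 5389 and 5436 TPM, above every control line, while ld9 at 4346 lay among them (4110 to 4378 TPM). Over lines, MT-RNR1 had a log2 fold change of 0.27 (SE 0.135, limma adjusted p = 0.993). Without library 1 of control line 3 it was 0.20 (limma adjusted p = 0.880).

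MT-ND6 was at 948, 850 and 1265 TPM in control line 1, at 653, 983 and 895 in line 2 and at 459, 489 and 828 in line 3. It was at 943, 807 and 769 TPM in line m, at 1304, 1384 and 1410 in le5 and at 1048, 1038 and 1035 in ld9. Line le5 was the highest of the 6 lines at 1366 TPM and control line 3 the lowest at 592 TPM. Over lines the difference was 0.44 on the log2 scale (SE 0.250, limma adjusted p = 0.993). Without library 1 of control line 3 that line averaged 659 TPM, still the lowest, and the difference was 0.39 (limma adjusted p = 0.880).

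For 9 of the 14 measured genes the libraries of the 3 deletion lines did not overlap from line to line. These were the 7 complex I messengers, MT-CO1 and MT-CO3, and MT-ND3 and MT-ND4L are given here. The share of all genes that separate the deletion lines in this way was not computed. The count is therefore not read as particular to mitochondrial genes. MT-ND3 was at 7414, 6680 and 6599 TPM in line m, 10391, 10582 and 10822 in le5 and 9365, 9334 and 9168 in ld9. MT-ND4L was at 20453, 18663 and 17504 TPM in m, 24767, 25740 and 25005 in le5 and 22547, 22851 and 22937 in ld9. Line le5 was highest and m lowest for both. Control lines 1 and 2 had 6027 to 6899 TPM of MT-ND3 and 16350 to 18905 TPM of MT-ND4L. Control line 3 was at 15103, 8244 and 8020 TPM of MT-ND3 and at 63445, 24000 and 22864 TPM of MT-ND4L, so that its libraries 2 and 3 lay within the range of the deletion lines. MT-CO2 showed little of this, at 13156, 13506 and 13497 TPM on average in m, le5 and ld9. Complex I took 47.1% of the TPM of mitochondrial protein genes in m, 51.5% in le5 and 50.2% in ld9, and 46.4% to 48.4% in the control lines. In control line 3 it was 45.6% and 46.5% in libraries 2 and 3.

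Library 1 of control line 3 was above all other control libraries for 12 of the 14 genes and below all of them for MT-ND6 and MT-RNR1. Against the mean of the other libraries of its line, MT-ND4L was 2.71 times as high at 63445 TPM, MT-ND5 2.29 times, MT-ATP6 2.13 times and MT-CO3 only 1.25 times. MT-RNR1 was at 0.658 times and MT-ND6 at 0.697 times that mean. The genes of the mitochondrial genome were thus not raised in one proportion: complex I took 53.1% of mitochondrial protein TPM there and complex IV 27.4%, outside the ranges of all other C4-2B libraries (45.5% to 51.7% and 33.1% to 36.3%). That library also had the fewest genes at 1 TPM or more, 13661 against 14335 to 14848 in the other C4-2B libraries, and the lowest KLK3 of the control libraries at 958 TPM. The part of these differences in the C4-2B results was not tested beyond leaving the library out, after which 0 genes and 0 members were still called.

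**Figure D4:**
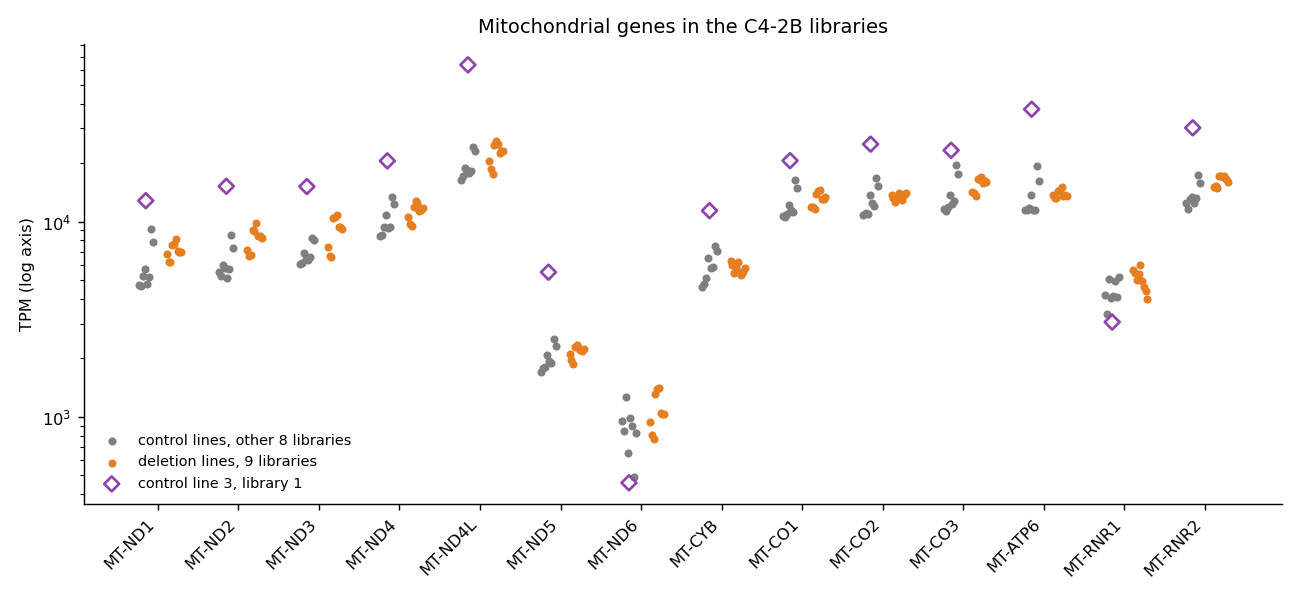
TPM on a log axis of the 14 measured mitochondrial genes in the 18 C4-2B libraries: the other 8 control libraries (grey), the 9 deletion libraries (orange) and library 1 of control line 3 (open diamond). The diamond lies above the other control libraries for 12 genes, by most for MT-ND4L at 63445 TPM, and at the bottom for MT-ND6 and MT-RNR1.

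For the C4-2B lines, the authors' deposited table called 2 of 28 mitochondrial genes with an adjusted p, near the 8.56% of all its genes. Both were named after their values were seen. In the authors' deposited table MT-TD, the aspartate transfer RNA, was at 2.12 on the log2 scale (standard error 0.465, adjusted p = 3.10e-04) on a mean normalized count of 37.5. MT-TE, the glutamate transfer RNA, was at 1.28 (standard error 0.342, adjusted p = 0.00472) on a mean normalized count of 181 in the authors' deposited table. MT-TE lies next to MT-ND6 on the same strand, and the authors' deposited table gives MT-ND6 0.31 with an adjusted p of 0.158. MT-TY was at -1.38 with an adjusted p of 0.161 and MT-TT at -0.63 with 0.252 in the authors' deposited table. Whether that test took libraries or lines as replicates is not stated. Of the 22 transfer RNA genes, 12 had a mean normalized count of 10 or more in the authors' deposited table. None of the nuclear lists had a called member in C4-2B by limma, and the smallest p in them belonged to MRPL40 (-0.38), NDUFA6 (-0.34), CYC1 (-0.29) and FASTKD1 (0.32), each with a limma adjusted p of 0.993.

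The eGFP libraries were also compared with the genome-editing control libraries of RWPE-1, and MT-RNR2, MT-ND2, MT-ND3 and MT-ND5 were called. This comparison was chosen after the data were seen. Transfection, sorting, time and any batch of library making cannot be told apart in it, and it shares its libraries with the comparisons above. Limma called 4 of 14 members, against 47.1% of the 15066 genes tested, and the members' share did not exceed that background. The same 4 members had groups without overlap, against 48.6% of all genes.

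MT-RNR2, the large ribosomal RNA, was at 11104, 13325, 13667, 12092 and 10650 TPM in control libraries and at 5593, 4816 and 5513 TPM in eGFP libraries. Every eGFP library was far below every control library, with a ratio of means of 0.436. MT-RNR2 fell by 1.19 on the log2 scale (SE 0.109, limma adjusted p = 7.31e-05). The 3 HOXA13 libraries, transfected and sorted in the same way, were at 5464, 5388 and 4771 TPM. MT-RNR1 did not separate the groups, with 1680, 1569 and 1781 TPM in eGFP libraries inside the control range. The ratio of MT-RNR2 to MT-RNR1 was therefore 3.16 ± 0.142 (SD, n = 3) in eGFP and 6.91 ± 1.39 (SD, n = 5) in control libraries, without overlap. It was 2.57 to 4.20 in the C4-2B libraries other than library 1 of control line 3, where it was 9.89.

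MT-ND2 and MT-ND3 rose and MT-ND5 fell, all of complex I. MT-ND3 was at 9272, 8475 and 8519 TPM in eGFP libraries, above the highest control library at 6177 TPM, and rose by 0.60 (SE 0.0784, limma adjusted p = 4.45e-04). MT-ND2 was at 12037, 10688 and 10891 TPM, above the highest control library at 9393 TPM, and rose by 0.47 (SE 0.0961, limma adjusted p = 0.00427). MT-ND5 was at 2711, 3366, 2532, 2614 and 1981 TPM in control libraries and 1906, 1594 and 1746 TPM in eGFP libraries. It fell by 0.58 (SE 0.153, limma adjusted p = 0.0136) and was no longer called without eGFP library 2 (limma adjusted p = 0.0616). MT-ND2 was not called under 2 of 17 alternatives, with no filter and with a replicate block. Genes of one complex thus moved in both directions, and complex I took 43.9% ± 0.470 of mitochondrial protein TPM in eGFP (SD, n = 3) against 40.3% in control libraries, while complex IV took 39.5% against 43.0%.

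Nuclear factors for the mitochondrial genome were called in both directions in the same comparison, in which 24.4% of all genes tested were called higher and 22.7% lower. Of 17 genes for transcription and replication, 1 rose and 3 fell. POLRMT, the mitochondrial RNA polymerase, rose by 0.91 (limma adjusted p = 2.71e-04), while TFB1M, which methylates the small ribosomal RNA, SSBP1, which coats single-stranded mitochondrial DNA, and MTERF4, a ribosome assembly factor, fell. For RNA processing, 3 of 32 rose and 13 fell. Together they were near the share of all genes called, but the part that fell was above its share and the part that rose below. LRPPRC, which stabilizes mitochondrial messengers, fell by 0.79 (limma adjusted p = 3.90e-04), TRNT1, which finishes transfer RNA 3′ ends, fell by 0.90, TRMT10C fell by 0.52, and FASTKD2, which binds the large ribosomal RNA, fell by 0.60. For ATP synthase 8 of 17 nuclear subunits fell and 0 rose, with ATP5F1A falling by 0.68 and ATP5ME by 0.61. Of the biogenesis regulators 2 of 8 rose, PPRC1 and YY1, and GABPA fell. For complex I 7 rose and 11 fell of 37, for complex III 1 rose and 2 fell of 9, for complex IV 2 rose and 4 fell of 11, and for the ribosomal proteins 11 rose and 14 fell of 78. Marker levels also differed in this comparison. The 4 basal markers, all above 1 TPM on average in both groups, summed to 8900 to 16580 TPM in control and 6086 to 6467 TPM in eGFP libraries. Of 3 immune markers, CD68 alone was above 1 TPM on average, and their sum was 9.88 to 50.4 TPM in control and 134.6 to 158.5 TPM in eGFP libraries, with the defining marker PTPRC at 0 in both groups. Of 5 fibroblast markers, COL1A1 alone was above 1 TPM on average, and their sum was 2.67 to 8.38 TPM in control and 16.1 to 20.6 TPM in eGFP libraries. The part of these levels in the differences was not tested.

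Copies of mitochondrial genes in nuclear chromosomes were examined because reads can match both places. The tables list 399 such copies, of which 6 reached 10 TPM in any library. MTND4P12, a copy of MT-ND4, was at 0.64 to 1.21 TPM in the 12 control and deletion libraries of RWPE-1, and at 118, 100.2 and 107 TPM in eGFP libraries. It was at 122, 115 and 98.2 TPM in HOXA13 libraries and at 0.25 to 0.86 TPM in C4-2B libraries. MTCO1P12, a copy of MT-CO1, was at 266 to 345 TPM in control and deletion libraries, at 708, 628 and 619 TPM in eGFP and at 624, 638 and 624 TPM in HOXA13 libraries. C4-2B libraries had only 5.38 to 12.4 TPM of it.

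MTATP6P1 showed the opposite direction. It was at 2469 to 2965 TPM in RWPE-1 control and deletion libraries and at 1250, 1109 and 1154 TPM in eGFP libraries, although MT-ATP6 overlapped between them. In C4-2B it was at 1949 to 3618 TPM, except for 10621 TPM in library 1 of control line 3. MTND2P28 was at 131 to 319 TPM in all libraries but that one, where it was at 696 TPM. MTND1P23 was at 42.0 to 73.8 TPM in the C4-2B lines le5 and ld9 and at 39.7 TPM or less in the other C4-2B lines. MTND3P22 was at 0 in RWPE-1 and reached 15.4 TPM in C4-2B. The copies together took 0.193% to 0.401% of TPM, and 1.138% in library 1 of control line 3, so their sum is small beside the mitochondrial share. How reads that match both a copy and its mitochondrial gene were assigned is not stated, and the values of both are uncertain to that extent.

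**Figure D5:**
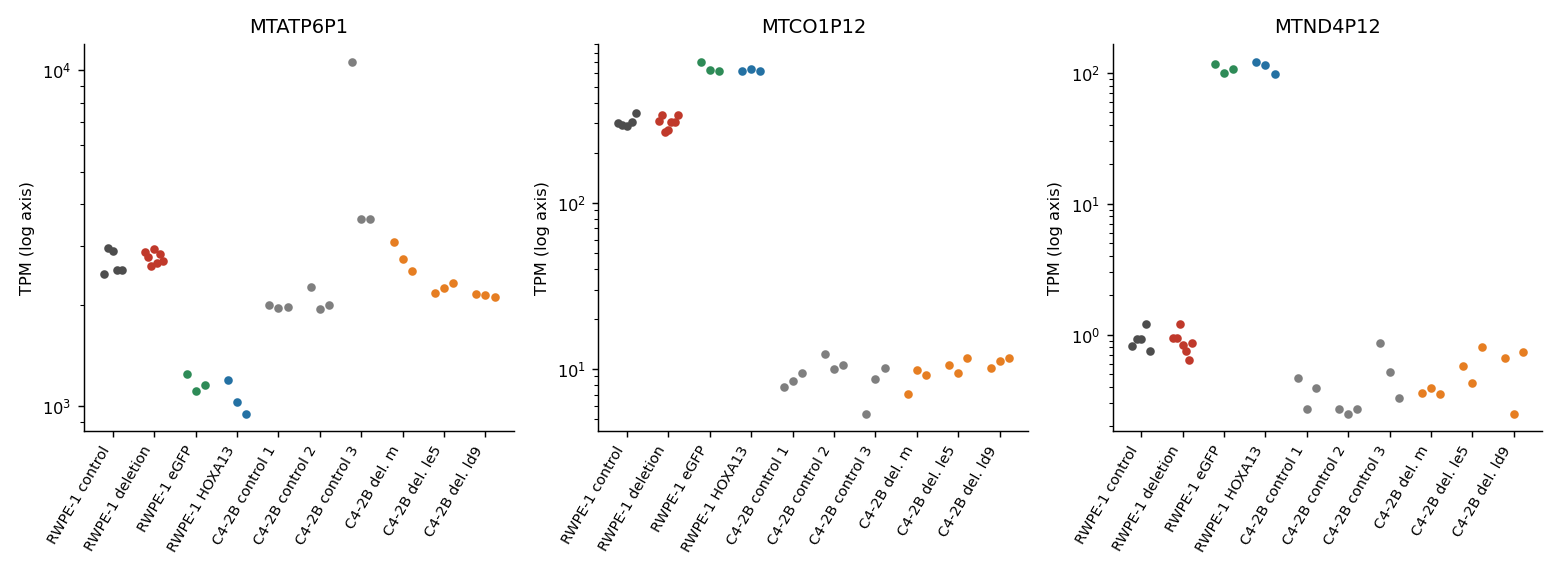
TPM on log axes of 3 nuclear copies of mitochondrial genes in all 36 libraries (points), by RWPE-1 group and C4-2B line. MTND4P12 lies at 98.2 to 122 TPM in the eGFP and HOXA13 libraries and at 1.21 TPM or less in all others, MTCO1P12 is low in C4-2B, and MTATP6P1 is highest in library 1 of C4-2B control line 3.

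Within groups the members varied together to different degrees. Correlations of log2 values centred by group are given as a description across libraries that share TPM scaling. Over the 18 RWPE-1 libraries the closest pairs were MT-CO3 with MT-ATP6, which are neighbours in the genome, and MT-ND1 with MT-ND4, both at r = 0.94, and MT-RNR1 had r = 0.80 with MT-RNR2. MT-ND4 was the most typical member with a median r of 0.73 to the others. MT-ND3 at 0.24 and MT-ND6 at 0.10 followed the others least. In C4-2B without library 1 of control line 3 (17 libraries), MT-ND3 and MT-ND4L had r = 0.90, and MT-ND6 and MT-RNR1 had r = 0.71 with each other. Their median r with all other members there was -0.20 for MT-ND6 and 0.076 for MT-RNR1, against 0.52 to 0.80 for the rest.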

How the data were processed

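RNA-seq libraries of RWPE-1 and C4-2B cells were grouped by the labels, and 2 Hi-C samples were not analysed here. Per the submitters' processing notes, FastQC, Trimmomatic 0.35, STAR 2.5.2b, featureCounts 1.5.1, RSEM 1.3.0 and DESeq2 1.14.1 were used by the authors on GRCh37. Which made each table, and whether reads were counted by strand, is not given in the sources used here. The expression tables hold TPM as deposited by the authors, whose libraries sum to between 999998.89 and 1000001.05. TPM keeps no counts, so the depth of a library is unknown, and no interval or detection floor was computed. The authors' tables of DESeq2 results hold, per the file headers, the mean normalized count as a signal averaged over libraries, the log2 fold change and, as a score, its standard error. Each row there also has the authors' p-value and adjusted p-value.

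Identifiers were matched to symbols by a gene table, which named 55487 of the 60252 rows. Values were tested as log2(TPM + 1) with limma 3.58.1 in R 4.3.3, two-sided, using lmFit and trended eBayes. A gene entered when the number of samples at 1 TPM or more reached the size of the smaller group, and p-values were adjusted by Benjamini-Hochberg over all genes that entered, with calls under 0.05. The added 1 is small beside the members' levels. Libraries of a C4-2B line were averaged on the log2 scale, so that a line is 1 replicate, and lines from a shared colony may not be independent. The mitochondrial share was described, not tested. The procedure was tested on simulated data. No 2 libraries of a table agreed closely, with at least 23993 rows differing between any pair. Chromosomes of nuclear genes came from a RefSeq gene table of another build (GRCh38.p14), which was used for names, neighbours and chromosome numbers only, so no coordinates are given. No sequence of a mitochondrial gene was used here.

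Named genes were all protein and ribosomal RNA genes of the mitochondrial genome, transfer RNA genes at 1 TPM or more in at least 3 libraries of a table (none was), up to 4 called members of each nuclear list by smallest p or otherwise the 2 with the smallest p, and nuclear copies at 10 TPM or more in any library. The members, lists and tests were chosen with earlier results of these data known. Alternatives were other scalings (to the sum of nuclear genes, median ratio, quantile), pseudocounts of 0.1 and 5, no filter, robust eBayes, a fit on all 18 RWPE-1 libraries, a line random effect, a replicate block, and leaving out each library or line. Comparing eGFP with control libraries, and rerunning list counts with libraries left out, were added after seeing the data.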

Additional observations from a re-analysis of the deposited data

Results flagged for a closer look

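In C4-2B control, library 1 of control line 3 was far from the other 8 control libraries in 10 measures, by a gap test that sets the distance to the nearest library against the range of the group. Its mitochondrial share was 28.4%, and the next library had 16.6%. It had 15151 TPM of MT-ND2, 15103 TPM of MT-ND3, 20441 TPM of MT-ND4, 63445.5 TPM of MT-ND4L and 5502 TPM of MT-ND5, all of complex I. It also had 11361 TPM of MT-CYB, 24916 TPM of MT-CO2, 37599 TPM of MT-ATP6 and 30197 TPM of MT-RNR2. In RWPE-1 deletion, library 4 was apart from the other 6 libraries for MT-CO2 at 26117 TPM, with the next at 24748 TPM. In all, 60 groups were examined and 11 held a library apart, of which 10 are this one C4-2B library. Chance gives about 1 in 20 for independent groups of independent libraries. That rate does not hold here, since the measures share their libraries and scaling and C4-2B libraries are nested in lines.

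For MT-CO2, every RWPE-1 deletion library was above the mean of its control libraries and every C4-2B deletion line was below the mean of its control lines. The mean differences were 2372 TPM in RWPE-1 and -804.6 TPM in C4-2B. Among 15 measures compared in this way MT-CO2 alone met that condition on every library and line, while mean differences were also of opposite sign for MT-ND4, MT-ND4L, MT-ND5, MT-CO1, MT-ATP6 and the mitochondrial share. The difference between the lines was not tested. Without library 1 of C4-2B control line 3 the C4-2B value was 193 TPM.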

How the results depend on the processing

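Of the values compared under the alternatives, most kept their direction and their side of the threshold, and the exceptions follow. In RWPE-1 deletion, 1 mitochondrial gene was called with TPM rescaled to the nuclear genes, with quantile normalization, with a pseudocount of 0.1 or 5 and in the fit on all 18 libraries, and 2 with robust eBayes. Under quantile normalization that gene was MT-ND4 (limma adjusted p = 0.0258). In the other settings it was MT-ND3, joined by MT-ND4L with robust eBayes. The number called was 0 to 3 when libraries were left out, 3 without control library 3 and 1 without deletion library 5. The log2 fold change turned to -0.042 for MT-ND1, -0.028 for MT-ND2, -0.012 for MT-ND5, -0.053 for MT-CYB and -0.00950 for MT-ATP6 under median-ratio scaling. Under quantile normalization it turned to -0.036 for MT-CYB, -0.022 for MT-CO1, -0.019 for MT-CO3 and -0.016 for MT-ATP6. With libraries left out it ran from -0.055 to 0.065 for MT-ND1, -0.00694 to 0.078 for MT-ND2, -0.057 to 0.13 for MT-ND5 and -0.036 to 0.076 for MT-CYB. Counts in the nuclear lists varied too, from 0 to 7 genes higher for RNA processing (0 with a replicate block) and from 1 to 5 lower for complex IV.

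For HOXA13 against eGFP, 1 gene of all was called with no filter, 113 in the fit on all 18 libraries and 1 to 5 with libraries left out. The log2 fold change turned to 0.031 for MT-ND4 and 0.00749 for MT-ATP6 under quantile normalization, and for MT-CO1 to -0.00549 with TPM rescaled to the nuclear genes, -0.017 under median-ratio scaling and -0.000157 under quantile normalization. With libraries left out it ran from -0.072 to 0.028 for MT-ND4, -0.030 to 0.099 for MT-ND5, -0.34 to 0.033 for MT-ND6, -0.066 to 0.023 for MT-CYB, -0.040 to 0.056 for MT-CO1, -0.096 to 0.00110 for MT-CO2 and -0.095 to 0.035 for MT-RNR2.

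For C4-2B, 6 genes of all were called with no filter, 24 with line as a random effect and 0 to 7 with libraries or lines left out, 7 of them without control line 3. The log2 fold change turned to -0.026 for MT-ND4, -0.049 for MT-ND4L and -0.057 for MT-CO1 under median-ratio scaling. Under quantile normalization it turned to -0.12 for MT-ND4L, 0.00986 for MT-ND5, 0.024 for MT-CO2 and 0.019 for MT-ATP6, and with the log2 of the mean TPM per line to -0.035 for MT-ND4L. With libraries or lines left out it ran from -0.017 to 0.48 for MT-ND1, -0.11 to 0.27 for MT-ND4, -0.14 to 0.31 for MT-ND4L, -0.21 to 0.21 for MT-ND5, -0.31 to 0.090 for MT-CYB, -0.12 to 0.22 for MT-CO1, -0.19 to 0.18 for MT-CO2, -0.053 to 0.34 for MT-CO3, -0.26 to 0.23 for MT-ATP6 and -0.00219 to 0.35 for MT-RNR2. The highest of these values came without control line 3.

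For eGFP against control, 6 mitochondrial genes were called with quantile normalization. It was 5 with a pseudocount of 5, with robust eBayes and in the fit on all 18 libraries. With no filter or a replicate block it was 3, and with libraries left out 3 to 5. MT-ND1, at 0.32 in the main fit (limma adjusted p = 0.0521), was called under 5 of 17 alternatives, and MT-CO1, lower in eGFP, under 1. The log2 fold change turned to 0.012 for MT-CYB and 0.00139 for MT-ATP6 under median-ratio scaling, and to 0.11 for MT-CYB and 0.018 for MT-CO3 under quantile normalization. With libraries left out it ran from -0.055 to 0.064 for MT-CYB, -0.064 to 0.027 for MT-ATP6 and -0.22 to 0.048 for MT-RNR1. The share was also taken for protein genes only, out of the TPM left without the mitochondrial ribosomal and transfer RNA genes. It was then 13.5% in RWPE-1 control, 14.4% in RWPE-1 deletion, 12.5% in HOXA13 and 12.5% in C4-2B deletion libraries. The cause of the changes in log2 fold change was not tested.

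Replicate numbers in the labels do not pair the samples by any stated source. Deviations of same-numbered libraries correlated between -0.18 and 0.14 for the RWPE-1 deletion and between -0.017 and 0.0059 for HOXA13 against eGFP. For C4-2B only the lowest correlation among the libraries of each number was kept. These lowest values lay between -0.14 and -0.068, and the higher correlations are not given. With the replicate number as a block, 450 genes were called for the RWPE-1 deletion, 1 for HOXA13 against eGFP and 10 for C4-2B with line as a random effect, and 0 mitochondrial genes in each.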
